A study of Homo sapiens with 4 samples.

Results

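The genes described here build and control the MHC class I complex. They are the heavy chain genes HLA-B, HLA-C and HLA-E, the light chain gene B2M, the peptide transporter genes TAP1 and TAP2, the tapasin gene TAPBP, and NLRC5 and CIITA, which switch on class I and class II genes. They were chosen by name, and all 9 were found among the 58735 genes of the expression table. RNA-seq had been carried out on cells labelled NB4, the name of a line that was derived from a human acute promyelocytic leukemia. There were 2 control libraries from cells labelled as untreated and 2 libraries from cells treated with GNE-987, which the study used at 25 nM for 24 h. The compound tethers BET bromodomain proteins, which read acetylated histones, to a ubiquitin ligase, so that they are degraded. All cells carried the same cell line label, and the labels do not say whether the 2 libraries of a group came from separate cultures, so the p values below measure the spread between these libraries, which may be technical.

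MHC class I molecules carry peptides from inside the cell to its surface, where cytotoxic T cells read them. A heavy chain folds with beta-2-microglobulin, the product of B2M. The transporter TAP brings peptides into the endoplasmic reticulum, and tapasin holds the empty complex beside TAP until a peptide fits. The peptides come from the proteasome, in immune cells often from a form with exchanged subunits, and peptidases trim them. In lymphoid and myeloid cells, NLRC5 drives class I promoters and CIITA drives class II promoters, each without binding DNA itself but through a complex of RFX, NF-Y and CREB family proteins. Interferons and NF-kappaB raise the same genes.

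Levels are FPKM, fragments scaled by the authors to gene length and library size, so levels of different genes can be compared per length. Between 19104453 and 19298621 reads on genes were recovered from the FPKM steps of each control library, and 12334421 and 12837371 from the GNE-987 libraries. The same read was worth more FPKM in the GNE-987 libraries, and scaling to recovered reads instead lowered log2 ratios between the groups by 0.78. Both scales are therefore given for the 9 genes and for the median of each list of pathway genes. The cell line label was checked against marker genes. GATA1, an erythroid transcription factor, measured 124 and 122 FPKM in untreated cells and 15.1 and 12.5 FPKM after GNE-987. MPO, a granule enzyme of promyelocytes, measured 0.0246 and 0 FPKM in untreated cells and 11.8 and 11.3 FPKM after GNE-987. Other markers of these types were mixed. In untreated cells SPI1 was at 7.52 and 5.68 FPKM and AZU1 at 2.07 and 2.10 FPKM, while ELANE and CTSG were at 0. Of erythroid genes, KLF1 went from 85.2 and 85.9 FPKM to 27.3 and 24.8 FPKM, but HBA1 from 43.8 and 45.4 FPKM to 180 and 152 FPKM. Counts for the marker lists are given below. MPO as a defining marker of promyelocytes was thus at or near 0 in the untreated cells, but no single marker settles the label. The cells are called here by their label only. In bulk RNA, fewer cells of a type and less RNA per cell cannot be told apart.

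The 9 genes did not move together. B2M and NLRC5 were called higher and TAP1 lower after GNE-987, where a call needs an unadjusted P under 0.05 from limma on log2(FPKM + 0.1) together with more than 2-fold higher or less than 0.5 of the control level. HLA-E, TAP2 and TAPBP were tested and not called. HLA-B, HLA-C and CIITA had a mean under 0.5 FPKM over the 4 libraries and were not tested. Thus 2 of the 6 tested genes were called higher and 1 lower, beside 33.6% of all 16668 tested genes called higher and 24.9% called lower, and the share of the 6 is not far from this background. As deposited, 5602 genes were called higher and 4148 lower, whereas scaling to recovered reads gave 4164 and 6646, quantile normalization 4235 and 5464, and scaling to GAPDH 3002 and 9683. NLRC5 passed the filter on low values only through the GNE-987 libraries and TAP1 only through the control libraries, so that their calls are in part fixed by the filter. The median log2 difference of all tested genes was 0.17 as deposited and −0.56 with scaling to recovered reads.

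**Figure D1:**
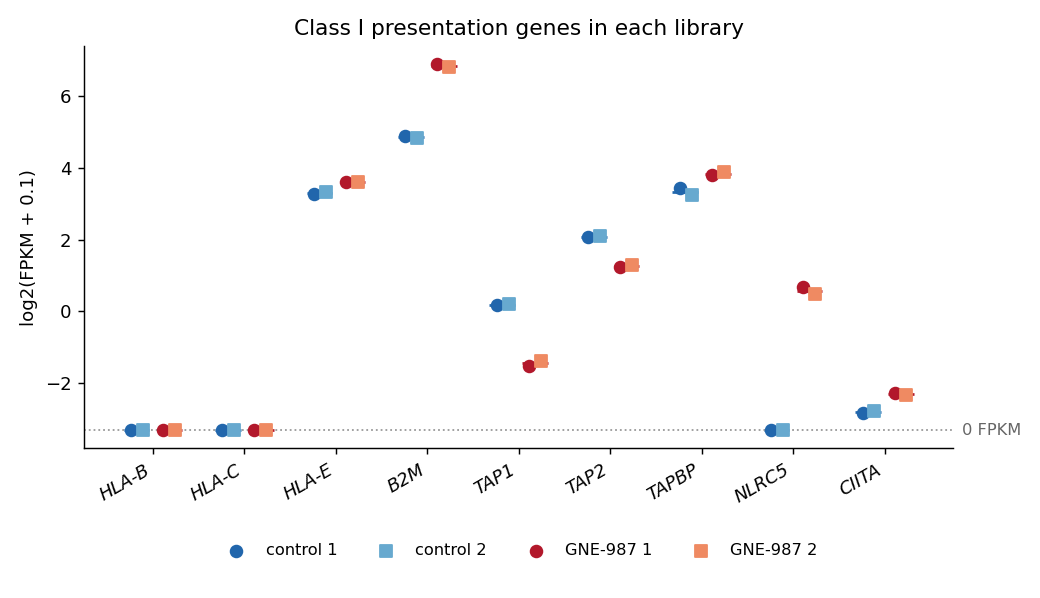
Level of each class I presentation gene as log2(FPKM + 0.1) in each library (circles and squares, libraries 1 and 2 of a group; short lines, group means; dotted line, 0 FPKM). B2M and NLRC5 lie higher in both GNE-987 libraries, TAP1 and TAP2 lie lower, and HLA-B and HLA-C lie at 0 in all 4.

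HLA-B (ENSG00000234745, chr6:31353872-31367067, minus strand, hg38) and HLA-C (ENSG00000204525, chr6:31268749-31272130, minus strand) encode classical heavy chains that present peptides to T cells. HLA-B was listed at 0 FPKM in all 4 libraries, and so was HLA-C. At the annotated exon length, a count of 0 allows up to 3 reads, which would be between 0.0282 and 0.0776 FPKM of HLA-B over the 4 libraries. For HLA-C the same limit lay between 0.052 and 0.143 FPKM. These limits cover counting error only.

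HLA-F and HLA-G, which encode nonclassical heavy chains, were also at 0 in all 4 libraries. HLA genes have near-identical copies and differ between people, and reads that match several copies or none can be left out of such counts. How the authors' counting treated them is not given in the sources used here, and its part in these zeros was not tested. Genes beside them were measured, since MICA, the next protein-coding gene after HLA-B, stood at 7.52 and 7.50 FPKM in the controls and at 5.113 and 4.796 FPKM after GNE-987. Between HLA-F and TAPBP (chr6:29722775-33314284), 22 of 147 protein-coding genes (14.97%) were at 0 in all 4 libraries, against 3282 of 19831 protein-coding genes (16.55%) overall.

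The promoters of these 2 genes listed at 0 are shown because they hold motifs through which class I genes are known to be driven. The windows are the 250 bases before the RefSeq start on GRCh38.p14, read along the minus strand, at chr6:31357180-31357429 for HLA-B and chr6:31272093-31272342 for HLA-C. Capitals mark, on either strand, the NF-Y motif CCAAT, the cyclic AMP response element core TGACG and the kappaB motif GGGATTCCC.
HLA-B promoter: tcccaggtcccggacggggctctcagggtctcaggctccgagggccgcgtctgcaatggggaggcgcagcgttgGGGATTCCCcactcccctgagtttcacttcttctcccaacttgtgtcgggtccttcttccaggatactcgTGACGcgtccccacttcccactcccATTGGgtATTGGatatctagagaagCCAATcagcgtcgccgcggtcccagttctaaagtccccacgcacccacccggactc
HLA-C promoter: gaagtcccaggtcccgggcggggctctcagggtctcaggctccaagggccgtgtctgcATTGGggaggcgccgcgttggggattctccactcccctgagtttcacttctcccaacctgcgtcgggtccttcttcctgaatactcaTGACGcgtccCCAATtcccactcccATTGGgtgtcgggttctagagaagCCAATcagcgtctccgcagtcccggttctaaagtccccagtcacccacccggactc
Aligned with gaps, 226 of 254 alignment columns were identical (89.0%). GGGATTCCC was in the HLA-B window only, and in 127 of 35116 promoters of the reference table (0.362%). Only this spelling of the kappaB motif was searched, so nothing follows for kappaB sites in HLA-C or the other promoters shown. HLA-B held 3 copies of CCAAT and HLA-C held 4, a motif found in 32.0% of all promoters. Each held 1 TGACG, found in 21.2% of all promoters. These are letter matches, not measured binding sites.

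HLA-E (ENSG00000204592, chr6:30489509-30494194, plus strand) encodes the nonclassical heavy chain that presents signal peptides to natural killer cell receptors. Among HLA-B, HLA-C, HLA-E, HLA-F and HLA-G it was the only gene with a level above 0. Its level was 9.49 and 9.98 FPKM in the control libraries and 12.06 and 12.11 FPKM after GNE-987, from 650, 657, 300 and 318 recovered reads. Both GNE-987 libraries were above both control libraries in FPKM. The difference was 0.31 on the log2 scale (SE 0.058, limma with Benjamini-Hochberg adjusted p = 0.0107), under the fold change needed for a call, and it turned to −0.47 when libraries were scaled to recovered reads. In reads per 1000000 recovered reads, HLA-E was at 33.7 and 34.4 in the control libraries and at 24.3 and 24.8 after GNE-987. Set against the median of all genes tested, its difference was 0.14 in FPKM and 0.10 with scaling to recovered reads.

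Among other class I heavy chain genes, HFE, which encodes a class I-like protein that controls iron uptake and also pairs with beta-2-microglobulin, rose. It stood at 0.773 and 0.741 FPKM in the controls and at 45.7 and 43.4 FPKM after GNE-987, a log2 difference of 5.70 (SE 0.072, limma with Benjamini-Hochberg adjusted p = 9.6e-05). MR1, which presents vitamin metabolites, was at 1.35 and 1.47 FPKM and then at 0.704 and 0.836 FPKM, and was not called. Of the 7 other heavy chain genes listed, 2 were tested, 1 was called higher and 0 lower, beside 33.6% and 24.9% of all tested genes. The median log2 difference of those 2 was 2.45 in FPKM and 1.73 with scaling to recovered reads. CD1D was at 0 in all 4 libraries.

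B2M (ENSG00000166710, chr15:44711358-44718851, plus strand) encodes beta-2-microglobulin, without which class I heavy chains do not reach the surface. It was the most abundant of the 9 genes in every library. Its level was 29.5 and 28.4 FPKM in the control libraries and 119.0 and 112.8 FPKM after GNE-987, from 4131, 3823, 6050 and 6052 recovered reads. The groups were far apart, and the libraries of a group differed by little. The log2 difference was 2.00 (SE 0.050, limma with Benjamini-Hochberg adjusted p = 0.000142), which is 3.99-fold. It was 1.21 when libraries were scaled to recovered reads, and 0.14 and no longer called when they were scaled to GAPDH, whose own level went from 398 and 432 FPKM to 1501 and 1499 FPKM. Set against the median of all genes tested, B2M stood 1.82 higher on the log2 scale in FPKM, 1.78 higher with scaling to recovered reads and 1.67 higher with scaling to GAPDH.

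The B2M promoter is shown because it holds the searched letters of an interferon-stimulated element, as the TAP and tapasin promoters do. Other spellings of this element were not searched, so nothing follows for the HLA-B and HLA-C windows. It lies at chr15:44711267-44711516 on GRCh38.p14, plus strand, before the RefSeq start, and the GENCODE gene begins inside it. Capitals mark, on either strand, the interferon-stimulated response element GAAANNGAA, here as overlapping copies, the cyclic AMP response element core TGACG and the NF-Y motif CCAAT.
B2M promoter: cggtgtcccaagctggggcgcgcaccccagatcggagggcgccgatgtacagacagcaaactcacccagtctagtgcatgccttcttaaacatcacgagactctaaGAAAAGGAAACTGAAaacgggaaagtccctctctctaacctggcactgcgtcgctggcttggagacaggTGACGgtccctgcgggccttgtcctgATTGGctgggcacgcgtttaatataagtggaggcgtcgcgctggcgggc
GAAANNGAA occurred 144 and 138 bases before the start, TGACG 75 bases before it and CCAAT 49 bases before it. The interferon element was found in 4 of the 6 genes of the set with a promoter in the reference table (B2M, TAP1, TAP2 and TAPBP) and in 6.88% of all 35116 promoters.

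The 3 protein-coding genes whose levels were most like those of B2M, by Euclidean distance over its 4 values of log2(FPKM + 0.1), were NDUFA4 (distance 0.0882), CPNE7 (0.134) and EIF4A3 (0.160). NDUFA4, a subunit associated with cytochrome c oxidase, went from 31.0 and 28.8 FPKM to 116 and 110 FPKM. EIF4A3, a core protein of the exon junction complex, went from 31.3 and 29.5 FPKM to 123 and 122 FPKM. None of these 3 genes belongs to antigen presentation, so levels and differences of the size seen for B2M were found outside the pathway too.

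The transporter genes moved the other way. TAP1 and TAP2 encode the partner chains of the peptide transporter and lie near each other on chromosome 6, TAP1 (ENSG00000168394) at chr6:32845209-32853816 and TAP2 (ENSG00000204267) at chr6:32821833-32838739, both on the minus strand. TAP1 stood at 1.03 and 1.04 FPKM in the controls and at 0.249 and 0.283 FPKM after GNE-987, from 114, 111, 10 and 12 recovered reads. TAP2 was at 4.13 and 4.15 FPKM and then at 2.25 and 2.34 FPKM, from 1216, 1174, 240 and 264 recovered reads. These reads of TAP2 hold for a length of 12780 bases. A length of 6390 bases also made them whole, so the true reads may be fewer. Both GNE-987 libraries were below both control libraries for each gene. TAP1 fell by 1.64 on the log2 scale, which is 3.11-fold lower. Because TAP1 passed the filter only through the control libraries, its test is given from the fit of all genes without a filter (SE 0.144, limma with Benjamini-Hochberg adjusted p = 0.0138). The difference of TAP2 was −0.83 (SE 0.088, limma with Benjamini-Hochberg adjusted p = 0.00207), short of the fold change needed for a call in FPKM. With scaling to recovered reads TAP1 was at −2.15 and TAP2 at −1.57, and both were called lower. With a pseudocount of 1 the difference of TAP1 was −0.69 and it was not called, since its FPKM values were then small beside the pseudocount.

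The control-cell transcripts of the transporter came mostly from TAP2. The ratio of TAP1 to TAP2 within a library was 0.249 and 0.251 in the control libraries and 0.111 and 0.121 after GNE-987. TAP1 shares its promoter region with PSMB9, an immunoproteasome subunit gene on the opposite strand, which stood at 0.410 and 0.441 FPKM in the controls and at 0.273 and 0.184 FPKM after GNE-987 and was not tested. The genes overlap, and whether the counting used strand is not given in the sources used here, so reads of the overlap cannot be told apart.

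Their promoters are shown because the 2 genes lie near each other, fell side by side on the read scale and hold the same interferon element as B2M. They lie at chr6:32853705-32853954 (TAP1) and chr6:32838740-32838989 (TAP2) on GRCh38.p14, read along the minus strand. Capitals mark, on either strand, the interferon element GAAANNGAA, the NF-Y motif CCAAT, the cyclic AMP response element core TGACG and the TATA box TATAAA.
TAP1 promoter: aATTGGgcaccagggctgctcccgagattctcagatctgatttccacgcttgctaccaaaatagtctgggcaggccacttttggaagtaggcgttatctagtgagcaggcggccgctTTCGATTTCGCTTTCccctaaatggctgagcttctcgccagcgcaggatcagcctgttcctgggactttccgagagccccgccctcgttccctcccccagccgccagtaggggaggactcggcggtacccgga
TAP2 promoter: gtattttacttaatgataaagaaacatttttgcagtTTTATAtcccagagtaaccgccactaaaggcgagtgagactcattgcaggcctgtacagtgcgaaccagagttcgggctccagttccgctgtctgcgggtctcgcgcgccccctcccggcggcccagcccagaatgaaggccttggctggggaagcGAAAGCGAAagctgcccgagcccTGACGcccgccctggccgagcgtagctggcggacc
The TAP1 window held GAAANNGAA 133 and 127 bases before the start, on the other strand and overlapping. The TAP2 window held it once, 58 bases before the start. TATAAA was found once, in TAP2, 214 bases before the start and on the other strand, and in 10.7% of all promoters. It is a letter match, and whether it works as a TATA box was not tested. A second TAP1 start in the reference table held the gamma-activated site TTCNNNGAA once, found in 6.57% of all promoters. GGGCGG (the GC box) was found in TAP1, TAP2, TAPBP and HLA-C and in 42.6% of all promoters, and CACGTG (the E box) in 0 of the 6 genes and in 6.34% of all promoters.

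TAPBP (ENSG00000231925, chr6:33299694-33314284, minus strand) encodes tapasin, which edits the peptides that class I molecules bind. Its level was 10.7 and 9.34 FPKM in the controls and 13.9 and 14.6 FPKM after GNE-987, from 1242, 1045, 587 and 652 recovered reads. In FPKM both GNE-987 libraries were above both control libraries, with a log2 difference of 0.51 (SE 0.089, limma with Benjamini-Hochberg adjusted p = 0.00864), too small for a call, and the difference was −0.27 with scaling to recovered reads. In control cells TAPBP and HLA-E could not be ordered, since their ranges overlapped. After GNE-987 TAPBP stood 1.18 times above HLA-E. This order depends on gene length, because the length that made the reads of TAPBP whole, 5056 bases, was 0.761 times the annotated exon length, whereas that of HLA-E was 1.02 times and that of B2M 1.95 times.

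Ratios of genes within a library do not depend on a factor that scales the whole library. Quantile normalization is not such a factor and would change them. HLA-E stood at 0.322 and 0.351 of the B2M level in the control libraries and at 0.101 and 0.107 after GNE-987. TAPBP stood at 0.361 and 0.329 of B2M and then at 0.117 and 0.130. Relative to B2M, the heavy chain HLA-E was thus 3.22-fold lower after GNE-987 and tapasin 2.80-fold lower. TAP2 went from 0.140 and 0.146 of B2M to 0.0189 and 0.0207, and TAP1 from 0.0349 and 0.0367 to 0.00209 and 0.00251. Relative to B2M, TAP2 was 7.23-fold lower and TAP1 15.6-fold lower. The groups did not overlap in any of these 4 ratios. HLA-E to TAPBP was 0.889 and 1.07 in the control libraries and 0.869 and 0.829 after GNE-987, a difference of −0.20 on the log2 scale that was smaller than the spread between the control libraries. With 2 libraries against 2, an exact two-sided permutation test cannot go below a p of 0.33, so no p is given for a ratio.

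**Figure D2:**
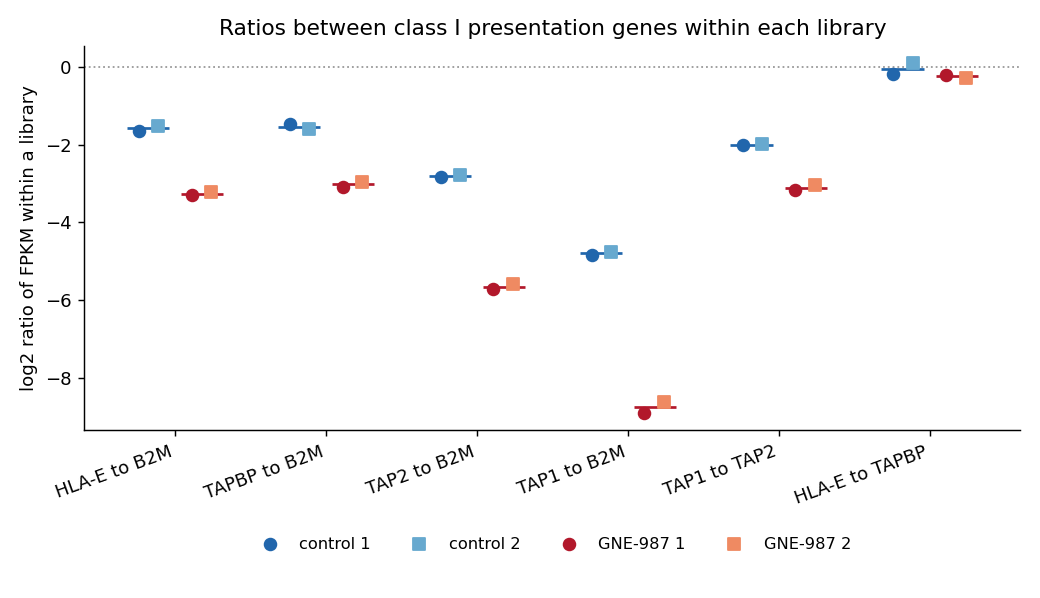
Ratios between class I presentation genes within each library, as log2 of the FPKM ratio (circles and squares, libraries 1 and 2 of a group; short lines, group means; dotted line, equal levels). HLA-E, TAPBP, TAP2 and TAP1 all lie lower relative to B2M after GNE-987, with log2 differences of −1.69, −1.49, −2.85 and −3.97, while HLA-E and TAPBP stay close to each other. B2M itself stood 1.82 above the median of all tested genes on the log2 scale, HLA-E at 0.14 and TAPBP at 0.33.

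The regulator genes differed in whether they could be measured. NLRC5 (ENSG00000140853, chr16:56989485-57083531, plus strand) encodes the transactivator of class I genes. No read of NLRC5 was recovered in either control library, and it was at 1.49 and 1.28 FPKM after GNE-987, from 154 and 140 recovered reads. With 3 reads as the limit that a count of 0 allows in a control library, NLRC5 was at least 117-fold higher in FPKM and at least 69.4-fold higher when scaled to recovered reads. Because it passed the filter only through the GNE-987 libraries, its test is given from the fit of all genes without a filter (limma with Benjamini-Hochberg adjusted p = 0.00894). The fitted log2 difference of 3.89 depends on the pseudocount. CIITA (ENSG00000179583, chr16:10866222-10943021, plus strand) encodes the transactivator of class II genes. It stood at 0.0398 and 0.0436 FPKM in the controls and at 0.104 and 0.0983 FPKM after GNE-987, from only 19, 20, 18 and 18 recovered reads. In reads per 1000000 recovered reads, CIITA was at 0.985 and 1.05 in the controls and at 1.46 and 1.40 after GNE-987. Without the filter on low values its log2 difference was 0.50 (SE 0.305, limma with Benjamini-Hochberg adjusted p = 0.547). DEXI, which overlaps CIITA on the opposite strand, was at 0.643 and 1.11 FPKM and then at 0.0179 and 0 FPKM.

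NLRC5 was not alone in its part of chromosome 16. CETP, which encodes a plasma lipid transfer protein and lies 5.64 kb before NLRC5 on the same strand, had no read in either control library and stood at 5.59 and 5.49 FPKM after GNE-987. CPNE2, which encodes a calcium-dependent membrane-binding protein and lies 9.05 kb behind NLRC5, was at 0.156 and 0.0581 FPKM and then at 1.60 and 1.37 FPKM, and was called higher. Both passed the filter only through the GNE-987 libraries. HERPUD1, a stress-response gene of the endoplasmic reticulum before CETP that was named here after its values were seen, went from 5.63 and 5.10 FPKM to 15.1 and 16.1 FPKM and was also called higher. Its log2 difference was 1.53, from 668, 581, 651 and 733 recovered reads. On the other side of CPNE2 the direction in FPKM ended, with PSME3IP1 called lower and RSPRY1 (−0.76) and ARL2BP not called. These calls are for FPKM as deposited. Scaling to recovered reads lowers log2 differences by 0.78, so the calls of HERPUD1 and RSPRY1 depend on the scale. Whether transcripts of 1 gene run into the next was not tested.

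**Figure D3:**
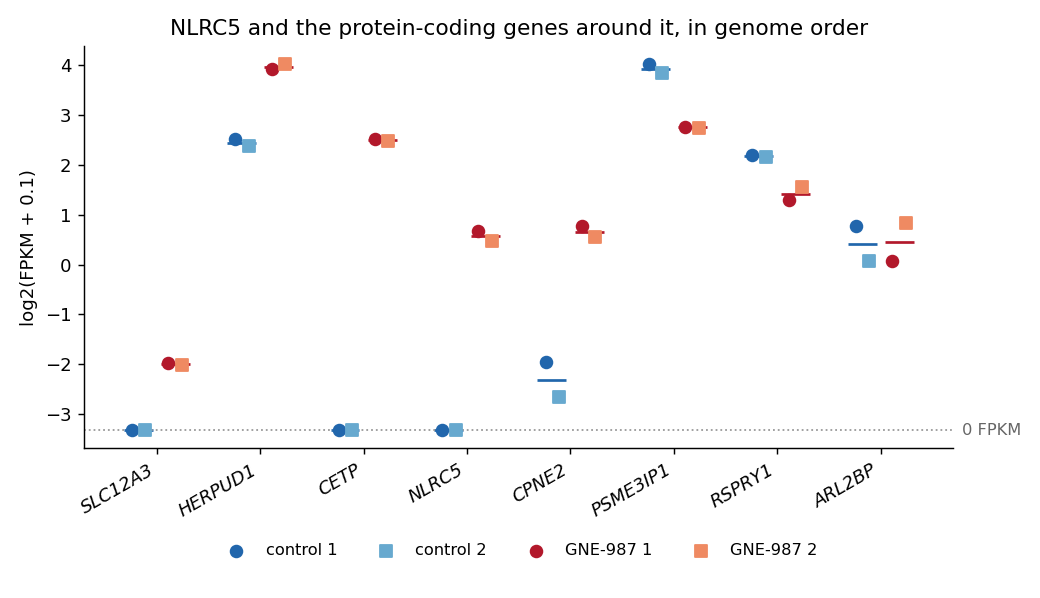
Levels of NLRC5 and the protein-coding genes around it in genome order from left to right, as log2(FPKM + 0.1) in each library (circles and squares, libraries 1 and 2 of a group; short lines, group means; dotted line, 0 FPKM). HERPUD1, CETP, NLRC5 and CPNE2, which follow each other on the same strand, all lie higher in both GNE-987 libraries, and PSME3IP1 lies lower.

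On the sides of the other 8 genes of the set, the nearest protein-coding genes were 13 genes outside the set. Of these 13, 8 were tested, 2 were called higher, 1 lower and 5 neither. Over all tested genes, 33.6% were called higher and 24.9% lower. The 3 further genes that overlap a gene of the set were not tested. TRIM69, a ubiquitin ligase gene 10.1 kb behind B2M, went from 0.366 and 0.263 FPKM to 1.25 and 1.30 FPKM, and PATL2 on its other side was below the filter. CLEC16A, an autophagy-related gene beside CIITA, went from 2.09 and 2.11 FPKM to 7.81 and 7.88 FPKM, and both genes were called higher, TRIM69 having passed the filter only through the GNE-987 libraries. RGL2 and ZBTB22 on both sides of TAPBP, GNL1 and RPP21 on both sides of HLA-E, and MICA beside HLA-B were tested and not called. HLA-DOB, the class II chaperone gene behind TAP2, was at 1.66 and 1.17 FPKM and then at 0.238 and 0.675 FPKM and was called lower, a call that was lost when control library 1, control library 2 or GNE-987 library 1 was left out. Over all 88 tested protein-coding genes between HLA-F and TAPBP, 19 were called higher and 28 lower. Of all 10996 tested protein-coding genes, 2638 were called higher and 3486 lower, shares near those of the region. The median log2 difference was −0.13 in the region, against −0.29 for all tested protein-coding genes.

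The direction of several genes depended on the scale, and the order between them less so. B2M was called higher as deposited and with median-ratio, quantile and recovered-read scaling, and TAP1 was called lower with all of these and with scaling to GAPDH. HLA-E and TAPBP were above 0 as deposited and with median-ratio and quantile scaling, and below 0 with recovered-read and GAPDH scaling. Set against the median of all genes tested under each of the 5 scalings, the log2 difference of B2M lay between 1.63 and 1.83, that of TAP2 between −1.0 and −0.78 and that of TAP1 between −2.65 and −1.16.

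**Figure D4:**
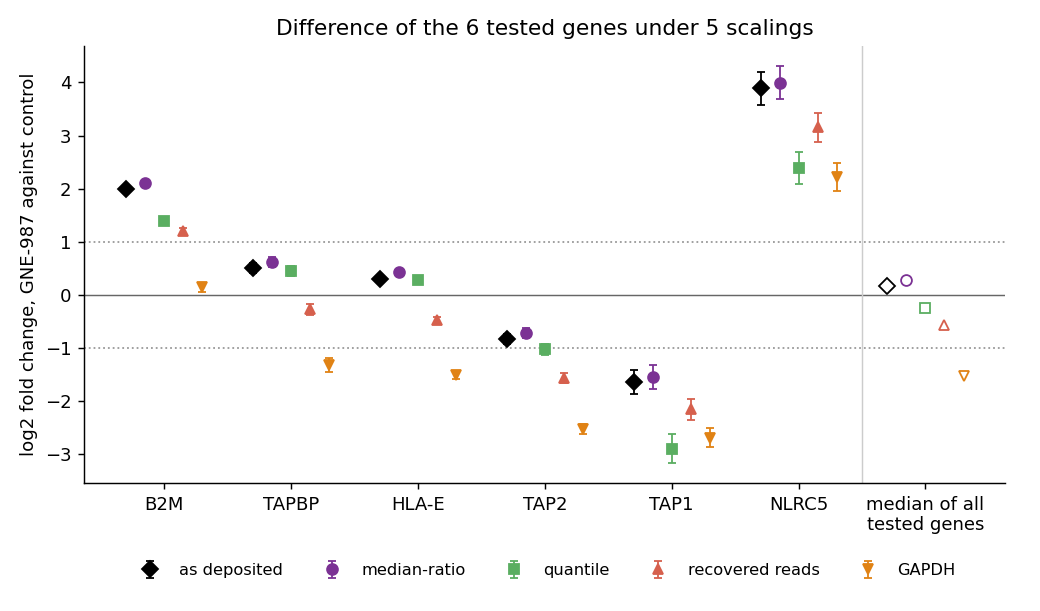
Difference of the 6 tested genes between GNE-987 and control on the log2 scale under 5 scalings (symbols; bars, SE from limma), beside the median of all tested genes (open symbols; dotted lines, a fold change of 2 in each direction). Scaling to GAPDH, itself 1.85 higher after GNE-987, lowers all genes, and B2M stays above TAPBP, HLA-E, TAP2 and TAP1 under each scaling.

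Of the 8 genes that supply peptides, 5 were tested, 2 were called higher and 1 lower, beside 33.6% and 24.9% of all tested genes. Their median log2 difference was −0.05 in FPKM and −0.78 with scaling to recovered reads. PSME1 and PSME2, the subunits of the interferon-inducible proteasome activator, rose. PSME1 went from 22.5 and 19.8 FPKM to 62.5 and 60.1 FPKM (log2 difference 1.53, SE 0.080) and PSME2 from 18.1 and 16.2 FPKM to 43.2 and 44.8 FPKM (1.36, SE 0.073). With scaling to recovered reads or to GAPDH neither was called higher. LNPEP, an aminopeptidase that trims peptides in endosomes, went from 4.63 and 4.91 FPKM to 1.61 and 1.61 FPKM and was called lower. The immunoproteasome subunit gene PSMB8 was at 0 in 3 of the libraries and at 0.0378 FPKM in GNE-987 library 2, and PSMB10 was at 2.02, 2.15, 2.00 and 2.02 FPKM and was not called.

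All 7 folding and loading chaperones were tested, 1 was called higher and 0 lower, beside 33.6% and 24.9% of all tested genes. Their median log2 difference was 0.81 in FPKM and 0.02 with scaling to recovered reads. Calreticulin (CALR), which holds the class I complex in the peptide-loading complex, was at 186 and 193 FPKM and then at 330 and 333 FPKM, and was not called. TAPBPL, which encodes the peptide editor TAPBPR outside the peptide-loading complex, went from 0.531 and 0.666 FPKM to 5.59 and 4.66 FPKM, a log2 difference of 2.90 (SE 0.178, limma with Benjamini-Hochberg adjusted p = 0.00054). Tapasin itself was not called, and the difference between TAPBP and TAPBPL was not tested.

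Of the 8 factors through which NLRC5 and CIITA act on promoters, all were tested, 0 were called higher and 6 lower, beside 24.9% of all tested genes called lower. With a pseudocount of 1 and with median-ratio scaling 4 were called lower. The median log2 difference was −1.14 in FPKM and −1.89 with scaling to recovered reads. RFXAP went from 5.39 and 5.20 FPKM to 0.622 and 0.639 FPKM (log2 difference −2.88, SE 0.112), and RFX5 from 8.34 and 8.28 FPKM to 2.56 and 2.17 FPKM (−1.78, SE 0.109). Both encode subunits of the RFX complex. ATF1, a CREB family factor, went from 11.2 and 10.8 FPKM to 1.89 and 2.52 FPKM (−2.29, SE 0.161). RFXANK, NFYB and NFYC were also called lower, while NFYA, at 0.24 on the log2 scale, and CREB1, at −0.16, were not called. The 2 libraries in which NLRC5 was detected and RFX5 and RFXAP were low are the GNE-987 libraries. The same holds for other genes lower after GNE-987, and a relation between NLRC5 and the RFX genes was not tested.

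Class II presentation genes stayed near the floor with few exceptions. Of 14 genes, 4 were at 0 in all 4 libraries (HLA-DRB1, HLA-DRB5, HLA-DQA1 and HLA-DQB1). Another 4 were tested, and 2 were called higher and 1 lower, beside 33.6% and 24.9% of all tested genes. The median log2 difference of those tested was 1.06 in FPKM and 0.40 with scaling to recovered reads. All 3 called genes passed the filter only through the group in which they were higher. HLA-DMA, part of the chaperone that exchanges class II peptides, went from 0.0857 and 0.0714 FPKM to 1.70 and 1.74 FPKM. CD74, the invariant chain, went from 0.136 and 0.071 FPKM to 0.902 and 1.25 FPKM. The sum of 6 markers of monocytes and dendritic cells went from 2.21 and 1.75 FPKM to 98.5 and 99.6 FPKM, mostly from CD14 and FCGR1A. Sums of several other marker lists, given below, rose too. Of the 6 markers, 3 were tested and called higher, 2 of which (CD14 and FCGR1A) passed the filter only through the GNE-987 libraries. CD86, CSF1R and ITGAX were not tested, and CD86 reached only 0.0348 and 0.0330 FPKM after GNE-987. CD14 was at 0.0921 and 0.120 FPKM and then at 50.4 and 52.2 FPKM, and FCGR1A at 0.029 and 0 FPKM and then at 40.2 and 37.9 FPKM. Their part in the class I and class II results was not tested.

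Of 16 interferon signalling genes, 14 were tested, 4 were called higher and 3 lower, shares near the 33.6% and 24.9% of all tested genes. Their median log2 difference was 0.45 in FPKM and −0.32 with scaling to recovered reads. IRF7, a transcription factor of the type I interferon response, went from 1.26 and 1.57 FPKM to 27.2 and 31.8 FPKM (log2 difference 4.30, SE 0.149), and SOCS1, a feedback inhibitor of interferon signalling, from 5.44 and 4.33 FPKM to 32.0 and 29.4 FPKM (2.63, SE 0.134). IFNAR1, a subunit of the type I interferon receptor, went from 4.10 and 4.64 FPKM to 1.14 and 1.76 FPKM (−1.56, SE 0.241). The interferon response genes outside antigen presentation were mostly too low to test, 17 of 25. Of the 8 tested, 5 were called higher and 0 lower, beside 33.6% of all tested genes called higher and 24.9% lower. However, 3 of the 5 (ISG20, IFI6 and IFI27) passed the filter only through the GNE-987 libraries. With scaling to recovered reads 3 were called higher. The median log2 difference of the 8 was 1.43 in FPKM and 0.70 with scaling to recovered reads. IFI35, which did not depend on the filter, went from 4.47 and 3.60 FPKM to 21.5 and 23.7 FPKM (2.47, SE 0.133). MX1, MX2 and GBP5 were at 0 in all 4 libraries, and ISG15 was at 14.4 and 10.4 FPKM and then at 14.999 and 11.8 FPKM, with overlapping groups.

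Of the 9 NF-kappaB subunits and inhibitors, all were tested, 3 were called higher and 0 lower, a share higher that matches the 33.6% of all tested genes. Their median log2 difference was 0.22 in FPKM and −0.54 with scaling to recovered reads. RELB, a subunit of the noncanonical pathway, went from 0.744 and 0.477 FPKM to 10.7 and 10.5 FPKM (log2 difference 3.94, SE 0.220). NFKBIA, which encodes the inhibitor that holds NF-kappaB in the cytoplasm, went from 7.03 and 6.74 FPKM to 69.6 and 72.7 FPKM (3.35, SE 0.053), and TNFAIP3, which encodes the feedback inhibitor A20, from 0.163 and 0.206 FPKM to 3.46 and 3.30 FPKM (3.61, SE 0.184), having passed the filter only through the GNE-987 libraries. The class I related ligands of the natural killer cell receptor NKG2D were not called in either direction, with 2 of 8 tested. They were MICA and MICB, whose log2 differences were −0.59 (SE 0.072) and −0.72 (SE 0.065). Their median was −0.65 in FPKM and −1.42 with scaling to recovered reads.

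**Figure D5:**
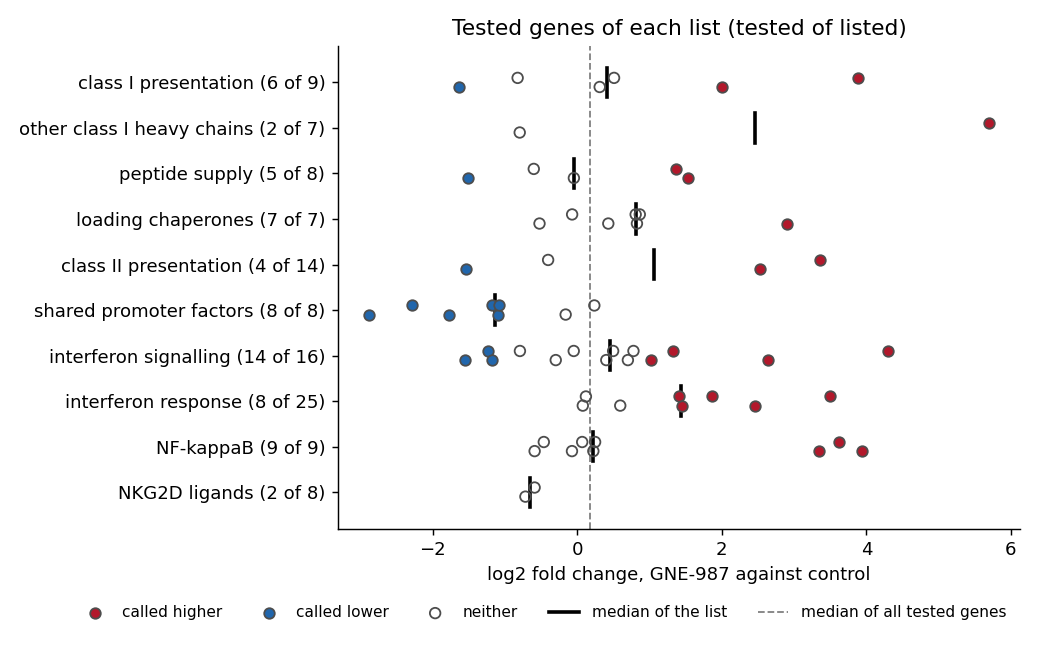
Log2 difference between GNE-987 and control for the tested genes of each list (points; filled when called; thick lines, median of a list; dashed line, median of all tested genes, 0.17). The factors shared by class I and class II promoters lie mostly below 0 with 6 of 8 called lower, while the interferon signalling list holds genes called in both directions, at shares near those of all tested genes.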

How the data were processed

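RNA-seq libraries were made from total RNA of cells labelled NB4 with an Illumina TruSeq RNA kit. After read filtering, the authors aligned with HISAT2 2.0.5 to hg38 (both named in the submitters' processing notes) and deposited FPKM per gene and library. The counting program, its use of strand and the annotation are not given in the sources used here. Gene names and positions were taken from GENCODE release 44. The deposited FPKM values were transformed to log2(FPKM + 0.1), and genes averaging at least 0.5 FPKM over the 4 libraries entered a limma 3.58.1 fit (R 4.3.3, intensity trend in the empirical Bayes step, no covariate). Calls used the thresholds of the study's methods, an unadjusted P under 0.05 with a fold above 2 or below 0.5, and Benjamini-Hochberg adjustment covered all tested genes. A count test was not used because the table holds FPKM.

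Reads were recovered from FPKM steps with a tolerance of 0.01 read. At annotated exon lengths 53.0% of the 32895 genes above 0 came out whole. The others, among them B2M, HLA-E, TAP1, TAP2, TAPBP and CIITA, were given another length where one was found. It was the length nearest the annotated one that made the reads of all 4 libraries whole, a weak check.

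The 9 genes, 9 further gene lists and 8 lists of cell type markers were chosen with earlier results of these data known. Named genes were the 9 genes, up to 3 called genes with the largest difference per list whose groups did not overlap, the nearest neighbours on the genome, the 3 genes most like B2M, and GAPDH, GATA1 and MPO. Other genes were named after their values were seen. Alternatives were other pseudocounts, filters, scalings and thresholds, the replicate number as a block, limma-voom on recovered reads, and leaving out each library. Promoters came from RefSeq (GRCh38.p14), where HLA-B, HLA-C, B2M, TAP1, TAP2 and TAPBP had entries.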

Additional observations from a re-analysis of the deposited data

How the results depend on the processing

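Over the 15 alternatives, 340 of 418 recomputed values kept their direction and side of the threshold or, for counts, stayed within 1.5 times the reported count. Scaling to GAPDH, itself higher after GNE-987, gave log2 differences of −1.51 for HLA-E, −1.32 for TAPBP, 0.14 for B2M (no longer called) and −2.52 for TAP2 (now called). It called 1 of the 9 genes higher and 4 lower, and 3002 of all genes higher and 9683 lower. Quantile normalization put TAP2 at −1.02, scaling to recovered reads at −1.57 and limma-voom on recovered reads at −1.63, all called, so that each called 2 of the 9 genes lower. HLA-E was at −0.47 with scaling to recovered reads and at −0.47 with limma-voom, and TAPBP at −0.27 with each. Those settings called 6646 and 6746 of all genes lower. A pseudocount of 1 put TAP1 at −0.69, not called, and left 0 of the 9 genes lower. A mean of at least 1 FPKM left 1 higher and 0 lower, since NLRC5 and TAP1 were no longer tested.

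Lists were counted again in the same way. For the other class I heavy chains, 1 was called lower with scaling to GAPDH, recovered reads, quantile normalization and limma-voom. For peptide supply, 0 were higher with scaling to GAPDH, recovered reads and limma-voom, and 3, 2 and 2 lower. For the chaperones, 5 were lower with GAPDH, 1 with recovered reads and 1 with limma-voom. For class II, 1 was higher with a pseudocount of 1, with GAPDH and with quantile normalization, 5 without a filter and 0 with a mean of at least 1 FPKM. The number lower was 0 with both pseudocounts, both filters and the replicate block, and 2 with GAPDH, quantile normalization, recovered reads and limma-voom. For interferon signalling, 2 were higher with a pseudocount of 1, quantile normalization, recovered reads and limma-voom and 1 with GAPDH, and 1 was lower with a pseudocount of 1, 10 with GAPDH, 5 with recovered reads and 5 with limma-voom. For the interferon response, 3 were higher with a pseudocount of 1, quantile normalization, recovered reads and limma-voom, 2 with a mean of at least 1 FPKM and 1 with GAPDH, and 1 was lower with quantile normalization and 3 with GAPDH. For NF-kappaB, 6 were lower with GAPDH, 1 with quantile normalization, 2 with recovered reads and 2 with limma-voom, and for the NKG2D ligands 2 were lower with GAPDH, recovered reads and limma-voom. The causes of these moves were not tested.

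Leaving out 1 library at a time gave 0 to 1 class II genes lower and changed no call of the 9 genes. B2M ranged from 1.96 to 2.04, TAP1 from −1.70 to −1.57 and NLRC5 from 3.79 to 3.99, where a group left with 1 library is assumed to vary like the other. Libraries with the same replicate number shared only that number (correlation of their deviations 0.00537), and the fit with the number as a replicate block called 5667 genes higher and 4186 lower, and of the values reported here changed only the class II genes called lower. With 10 to 20 reads behind TAP1 after GNE-987 and CIITA, differences of these genes are limited by depth.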

Other observations

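Markers of other blood and stromal cells were read beside the class I genes. Over all tested genes, 33.6% were called higher and 24.9% lower. Of 12 erythroid markers, all 12 were tested, 6 were called higher and 4 lower, and their sum went from 719 and 709 FPKM in the controls to 1054 and 934 FPKM after GNE-987, but from 858 and 821 to 715 and 642 when the libraries were scaled to recovered reads. Of 9 promyelocyte and granulocyte markers, 6 were tested, 3 were called higher and 1 lower, and their sum went from 10.9 and 9.59 FPKM to 32.4 and 29.7 FPKM. The B cell list went from 0.936 and 0.950 FPKM to 25.16 and 23.97 FPKM, with 3 of 5 markers tested and 2 called higher. The NK cell list went from 1.84 and 1.28 FPKM to 5.20 and 5.51 FPKM, with 2 of 5 tested and 1 called higher. The megakaryocyte list went from 0.535 and 0.503 FPKM to 3.84 and 5.27 FPKM, with 1 of 5 tested and 1 called higher. The fibroblast and endothelial list went from 0.204 and 0.193 FPKM to 13.8 and 16.1 FPKM, with 2 of 5 tested and 2 called higher. The T cell list was at 18.1 and 17.0 FPKM and then at 22.5 and 23.5 FPKM, with 2 of 6 tested, 0 called higher and 1 lower. It went from 21.6 and 19.7 to 15.3 and 16.2 when the libraries were scaled to recovered reads. Of the higher calls, 2 of the promyelocyte and granulocyte list (MPO and CEBPE) and all of the B cell, NK cell, megakaryocyte and stromal lists belong to genes that passed the filter only through the GNE-987 libraries. Their part in the results on class I genes was not tested.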
